A study of Mus musculus with 4 samples.

Results

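Matrix proteases and their inhibitors were examined in cultured mouse ureters in which the secretion of WNT ligands had been blocked. The genes were those of the array design named as a matrix metalloprotease (MMP), an ADAM protease, an ADAMTS protease, an ADAMTS-like protein (ADAMTSL) or a tissue inhibitor of metalloproteases (TIMP). Of 84 such names 64 were measured, which means that their probe was well above background on all 4 arrays in the control pools or in the IWP-2 pools. They are 64 of 22455 genes tested.

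Both groups came from wildtype NMRI embryos at E12.5. The ureters were dissected, placed on transwell membranes and kept for 18 h in medium without serum. One group received 10 µM IWP-2, an inhibitor of Porcupine, the enzyme that attaches the lipid needed for WNT secretion, and the control group received the solvent DMSO only. Each of the 4 two-color Agilent arrays set RNA of 1 pool of treated ureters against RNA of 1 pool of control ureters. The treated RNA carried the red dye on arrays 1 and 3 and the green dye on arrays 2 and 4. The labels give the sex of the embryos as not determined, and a pool mixes the ureters of several embryos. IWP-2 was given to the whole explant and not to a single tissue, and its effects on epithelium and mesenchyme were not measured apart. Since a whole ureter was measured, fewer cells of a type and less RNA per cell cannot be told apart.

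These enzymes share a zinc-dependent protease domain. MMPs cut collagens, laminins and other matrix proteins, and some of them are anchored in the membrane. ADAMs are membrane proteins, several of which release growth factors, receptors and adhesion molecules from the cell surface. ADAMTS proteases are secreted and cut versican and its relatives, trim procollagens or act on fibrillin microfibrils, whereas ADAMTSL proteins lack the protease domain and bind to the matrix. TIMPs block the active site of MMPs and of some ADAMs and ADAMTS proteases. In the developing ureter the matrix lies between the epithelium and the mesenchyme that surrounds it.

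The arrays read each gene with probes of 60 bases. Most probes lie within a single stretch of the genome, but 6 of the 93 probes of the measured genes cross an intron and thus read spliced transcript. Among them are probes of 3 genes that were higher with IWP-2, shown here 5′ to 3′ on mm9 coordinates. They are in lower case throughout because the files do not mark where the exons meet.
Adamtsl1, chr4:85898689-85922776: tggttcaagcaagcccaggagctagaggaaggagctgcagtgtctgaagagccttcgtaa
Adam12, chr7:141079625-141081861: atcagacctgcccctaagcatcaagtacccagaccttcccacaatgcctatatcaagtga
Mmp16, chr4:18020570-18037588: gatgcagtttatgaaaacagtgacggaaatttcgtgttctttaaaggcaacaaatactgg
The Adamtsl1 probe gave a log2 ratio of IWP-2 over control of 0.73 ± 0.05 (SD, n = 4), the Adam12 probe one of 0.35 ± 0.15 and the Mmp16 probe one of 0.35 ± 0.14. For Mmp16 it is the probe that stands for the gene below, while Adamtsl1 and Adam12 have brighter probes elsewhere in the gene, on which their values below rest.

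With IWP-2, 15 of the 64 measured genes were lower and 21 were higher, while 28 did not pass the test (limma, adjusted p under 0.05). Lower genes made up 23.4% of the set, against 15.0% of all genes tested, and higher genes 32.8%, against 18.1%. The counts of families, subgroups and lists below stand against these same shares of all genes tested. Since the lists and subgroups were chosen with earlier results of these data known, their counts and shares are descriptions only. The ADAMTS genes moved most: their median size of change was 0.45 on the log2 scale, against 0.20 over all 64 genes and 0.10 over all genes tested. They moved in both directions, from -0.70 for Adamts15 to 0.95 for Adamts17. The largest change of the set was the rise of Adamtsl1 by 1.23, a 2.34-fold difference, and it was the only one of at least 2-fold. From the processed signals Adamts5 (1.06) and Adamts16 (1.01) reached 2-fold as well. As the mean of all probes of a gene, Adamtsl1 (0.93), Adamts5 (0.81) and Adamts16 (0.51) all stayed below 2-fold. TIMP genes had 2 lower and 0 higher members. The changes of the set were thus mostly small, and 7 of the 36 called genes reached 1.5-fold. Among all genes tested, 3360 were lower and 4068 higher, of which 662 reached 1.5-fold and 204 reached 2-fold.

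The median of the log2 ratios was 0.06 over the 64 genes, against 0.00 over all genes tested. For 42 of the 64 genes the ratio had the same sign on all 4 arrays, against 9736 of all 22455 genes tested. Control and IWP-2 pools did not overlap in their normalized log2 channel intensity for 30 genes (46.9%), against 22.4% of all genes tested. By family, the groups were separate for 13 of 18 ADAMTS, 9 of 24 ADAM, 4 of 5 ADAMTSL, 3 of 13 MMP and 1 of 4 TIMP genes. Of the measured genes 56 were well above background on all arrays of both groups, and of these 15 were lower and 20 higher. The other 8 (Mmp8, Adam25, Adam26a, Adam28, Adam34, Adam39, Adamts20 and Adamtsl3) met the limit in the IWP-2 pools alone, and of these only Adamtsl3 passed the test. Adamtsl3 is counted above among the higher genes and the ADAMTSL genes with separate groups, although it entered only through the group where it was higher.

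**Figure D1:**
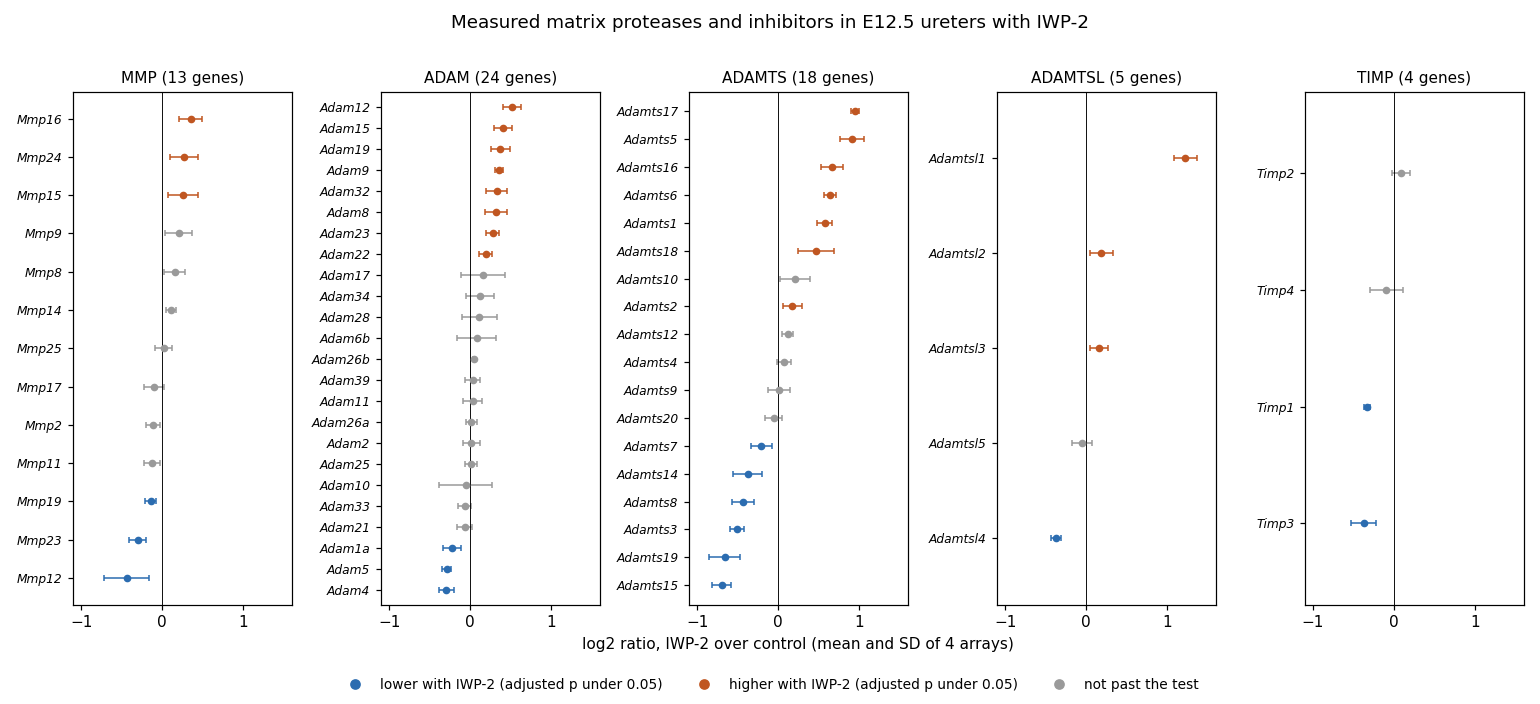
Log2 ratio of IWP-2 over control for the 64 measured genes, one panel per family, with points for the mean and bars for the SD of 4 arrays; blue and orange mark genes past the test. The ADAMTS panel spans -0.70 to 0.95, the TIMP panel holds no higher gene, and Adamtsl1 stands at 1.23.

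Control channels had median raw spot intensities of 368 to 711 and IWP-2 channels of 385 to 694, over a local background of 28 to 77. Across the 64 genes the log2 ratios of any pair of arrays correlated with Pearson r of 0.83 to 0.92, which is a description across genes that share the arrays. The compound lowered Axin2, a direct target of canonical WNT signaling, by 1.56 ± 0.09 on the log2 scale (SD, n = 4), and the WNT-responsive genes Sp5, Nkd1 and Lef1 lay at -2.72 ± 0.28, -1.59 ± 0.08 and -1.47 ± 0.16. The labels do not say whether the pools came from separate cultures, so that p-values measure only the spread between these pools, which may be technical.

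Markers of the cell types in the explant moved too. All 7 epithelial markers were higher (0.24 to 0.34), as were 4 of 6 endothelial, 6 of 8 macrophage, 4 of 6 blood and 5 of 5 nephron progenitor markers. Of 6 smooth muscle markers 5 were lower, with a median of -0.59. Among 6 mesenchymal markers Tbx18 was lower, Pdgfrb was higher and 4 did not pass the test. Neural crest markers had 1 lower and 2 higher genes of 6. Summed channel intensities ranged over the 4 pools from 179906 to 195169 (control) and from 205264 to 255388 (IWP-2) for epithelium, from 31334 to 45875 and from 19915 to 28575 for smooth muscle, and from 15289 to 18172 and from 17547 to 20660 for macrophages. For mesenchyme they were 361300 to 390871 and 374622 to 416677, for endothelium 47325 to 55726 and 54652 to 64214, and for blood 172845 to 270371 and 230766 to 289435. All these markers were well above background on all arrays of both groups except the macrophage marker Fcgr1, which met the limit on 2 control arrays and 4 IWP-2 arrays and is among those counted as higher. The part of these shifts in the results below was not tested.

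ADAMTS proteases that cut versican and other hyalectans were split, with 2 lower, 2 higher and 3 not past the test among 7. The control pools gave log2 channel intensities of 9.01, 8.67, 8.72 and 8.94 for Adamts5 on arrays 1 to 4, and the IWP-2 pools 9.79, 9.78, 9.67 and 9.75. All IWP-2 pools lay above all control pools. Adamts5 encodes a major aggrecan- and versican-cleaving enzyme, and its probe lies on chr16:85858402-85858461. Its array ratios of 0.78, 1.11, 0.95 and 0.82 gave a rise by 0.91 ± 0.15 (SD, n = 4; adjusted p = 0.000229), which is 1.88-fold. A second Adamts5 probe gave 0.70 ± 0.05.

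For Adamts1, which cuts versican and aggrecan as well, the control values were 14.09, 13.93, 14.04 and 14.06 and the IWP-2 values 14.53, 14.51, 14.69 and 14.68. The groups again did not overlap. The rise was 0.58 ± 0.09 (SD, n = 4; adjusted p = 0.000496), with ratios of 0.44, 0.58, 0.65 and 0.62. Adamts15 went the other way: its control pools lay at 11.03, 10.92, 11.08 and 11.20 and its IWP-2 pools at 10.47, 10.21, 10.40 and 10.36. It was the largest fall of the set. Array ratios of -0.56, -0.72, -0.68 and -0.84 gave a mean of -0.70 ± 0.11 (SD, n = 4; adjusted p = 0.000186), or 1.62-fold lower. Adamts8 fell by 0.44 ± 0.14 with separate groups, although a second, dimmer probe of it gave only -0.10 ± 0.07; the mean of both was -0.27 and the processed signals gave -0.67. Adamts9, Adamts4 and Adamts20, at 0.02 ± 0.14, 0.07 ± 0.09 and -0.05 ± 0.10, did not pass the test. Second probes of Adamts9 and Adamts4 lay at -0.13 ± 0.32 and -0.04 ± 0.05.

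The substrates of this group were read as well. Vcan, the gene of versican, fell by 0.21 ± 0.10 (adjusted p = 0.0118), but without array 3 its change of -0.18 did not pass (adjusted p = 0.0583). Bcan, encoding brevican, fell by 0.33 ± 0.12, and by 0.63 from the processed signals. Hapln3, which encodes a link protein that fastens hyalectans to hyaluronan, fell by 1.73 ± 0.19 with ratios of -1.44, -1.79, -1.86 and -1.81. Under alternative processing its change ranged from -1.90 to -1.26. Ncan, Acan and Hapln1, the genes of neurocan, aggrecan and another link protein, did not pass the test, at -0.14 ± 0.11, -0.05 ± 0.09 and 0.04 ± 0.43. Thus 3 of 6 genes were lower and 0 higher.

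**Figure D2:**
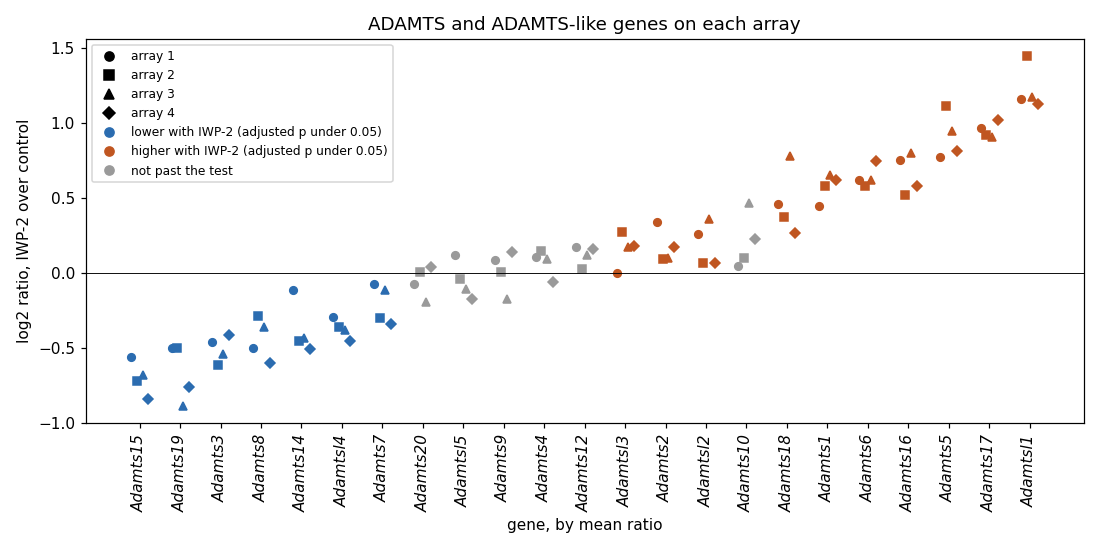
Log2 ratio of IWP-2 over control on each of the 4 arrays (marker shapes) for the measured ADAMTS and ADAMTSL genes, ordered by their mean; blue and orange mark genes past the test. Adamts15 lies between -0.84 and -0.56 and Adamtsl1 between 1.13 and 1.45, so that both ends are clear of 0 on every array.

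The procollagen N-proteinases, which remove the amino-terminal propeptide of fibrillar procollagens, had 2 lower genes and 1 higher gene of 3. Adamts3 had control values of 8.82, 8.98, 8.92 and 8.66 and IWP-2 values of 8.36, 8.37, 8.38 and 8.25. All IWP-2 pools lay below all control pools. The ratios of -0.46, -0.61, -0.54 and -0.41 gave -0.51 ± 0.09 (SD, n = 4; adjusted p = 0.000822), and a second probe gave -0.15 ± 0.14, with a mean of both of -0.33. Adamts14 fell by 0.38 ± 0.18. Adamts2 rose by 0.18 ± 0.11 (adjusted p = 0.0409). This rise was not past the test without array 1 (0.12), array 2 (0.20) or array 4 (0.16), nor as the mean of its probes (0.07), and its second probe lay at -0.03.

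Enzymes that cut or assist at the other propeptide of procollagen were listed with them. Tll1, encoding the tolloid-like protease TLL1, fell by 2.04 ± 0.15 (adjusted p = 1.22e-05) with ratios of -1.82, -2.15, -2.13 and -2.06, and by 1.13 as the mean of all its probes, while Bmp1, the gene of the related protease BMP1, lay at 0.01 ± 0.12. Pcolce2, which encodes an enhancer of these proteases, fell by 0.58 ± 0.16, and by 0.90 from the processed signals. Pcolce, encoding the other enhancer, rose by 0.14 ± 0.03, and lost its call without any 1 of the 4 arrays (0.13 to 0.16).

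Adamts7 and Adamts12 encode proteases that cut COMP, a cartilage matrix protein. Adamts7 fell by 0.21 ± 0.13 with separate groups, whereas Adamts12 lay at 0.12 ± 0.07 (adjusted p = 0.0748). A second Adamts12 probe lay at -0.09 ± 0.13. Of Adamts6 and Adamts10, both tied to fibrillin microfibrils, Adamts6 rose. Its control values were 11.01, 10.78, 10.91 and 10.83 and its IWP-2 values 11.63, 11.35, 11.53 and 11.58. The groups were separate, and the ratios of 0.62, 0.58, 0.62 and 0.75 gave 0.64 ± 0.08 (SD, n = 4; adjusted p = 0.000263). Adamts10 lay at 0.21 ± 0.19 (adjusted p = 0.0671), and its second probe at -0.10 ± 0.06.

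Of the 4 genes Adamts16 to Adamts19, whose substrates are less well known, 3 were higher and 1 lower. The Adamts17 control pools gave 11.00, 10.97, 11.11 and 10.83, and the IWP-2 pools 11.96, 11.89, 12.02 and 11.85. Its 4 ratios, 0.97, 0.92, 0.91 and 1.02, were close to each other. The mean of 0.95 ± 0.05 (SD, n = 4; adjusted p = 3.90e-05) is a 1.94-fold rise, and a second, dimmer probe gave 0.46 ± 0.14. Adamts16 had control values of 7.34, 7.51, 7.47 and 7.46 and IWP-2 values of 8.09, 8.03, 8.27 and 8.04. Here too the groups were apart. The rise was 0.66 ± 0.13 (SD, n = 4; adjusted p = 0.000134), with ratios of 0.75, 0.52, 0.80 and 0.58 and a second probe at 0.36 ± 0.10. From the processed signals it was 1.01.

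In Adamts18 the control pools lay at 8.96, 9.27, 8.84 and 9.29 and the IWP-2 pools at 9.43, 9.65, 9.62 and 9.56. The gap between the groups was small but present. The ratios of 0.46, 0.38, 0.78 and 0.27 gave a rise by 0.47 ± 0.22 (SD, n = 4; adjusted p = 0.00232), and a second probe gave 0.23 ± 0.11. Adamts19 fell: control values of 10.98, 10.86, 11.05 and 11.03 stood against IWP-2 values of 10.49, 10.36, 10.16 and 10.27. No pool of one group reached the other group. Its ratios of -0.50, -0.50, -0.88 and -0.76 gave -0.66 ± 0.19 (SD, n = 4; adjusted p = 0.00157).

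ADAMTS-like proteins carry the thrombospondin repeats of ADAMTS proteases without the catalytic part. Adamtsl1, the gene of punctin, had control values of 10.99, 11.09, 11.27 and 11.08 and IWP-2 values of 12.15, 12.53, 12.44 and 12.21. All IWP-2 pools were well above all control pools. The ratios of 1.16, 1.45, 1.17 and 1.13 gave 1.23 ± 0.15 (SD, n = 4; adjusted p = 5.39e-05). Its further probes, among them the one across an intron printed above, gave 0.83 ± 0.15 and 0.73 ± 0.05, so that all 3 probes were higher on all 4 arrays.

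Adamtsl4, encoding a protein that binds fibrillin-1, fell by 0.37 ± 0.06 (adjusted p = 0.00147). Adamtsl2 rose by 0.19 ± 0.15 (by 0.31 from the processed signals), but not past the test without array 3 (0.16). Adamtsl3 rose by 0.16 ± 0.11 near the background, where it met the limit on 3 control and 4 IWP-2 arrays. The call was absent without array 2 (0.14), array 3 (0.12) or array 4 (0.18), and the authors' table of fold changes gave 0. Adamtsl5 did not pass the test, at -0.05 ± 0.13. A list of thrombospondins, fibrillins and their binding proteins, which share domains or partners with this family, had 4 lower and 0 higher genes of 7. Lower genes were thus 57.1%, against 15.0% of all genes tested, in a list chosen with earlier results of these data known. Thbs1 and Thbs2, encoding thrombospondins, fell by 0.67 ± 0.28 and 0.56 ± 0.12. Thsd4, which encodes the fibrillin-binding ADAMTSL6, fell by 0.51 ± 0.26, and Ltbp1, whose protein holds latent TGFB in the matrix, fell by 0.42 ± 0.10. The fibrillin genes Fbn1 and Fbn2 lay at -0.01 ± 0.14 and 0.04 ± 0.12.

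**Figure D3:**
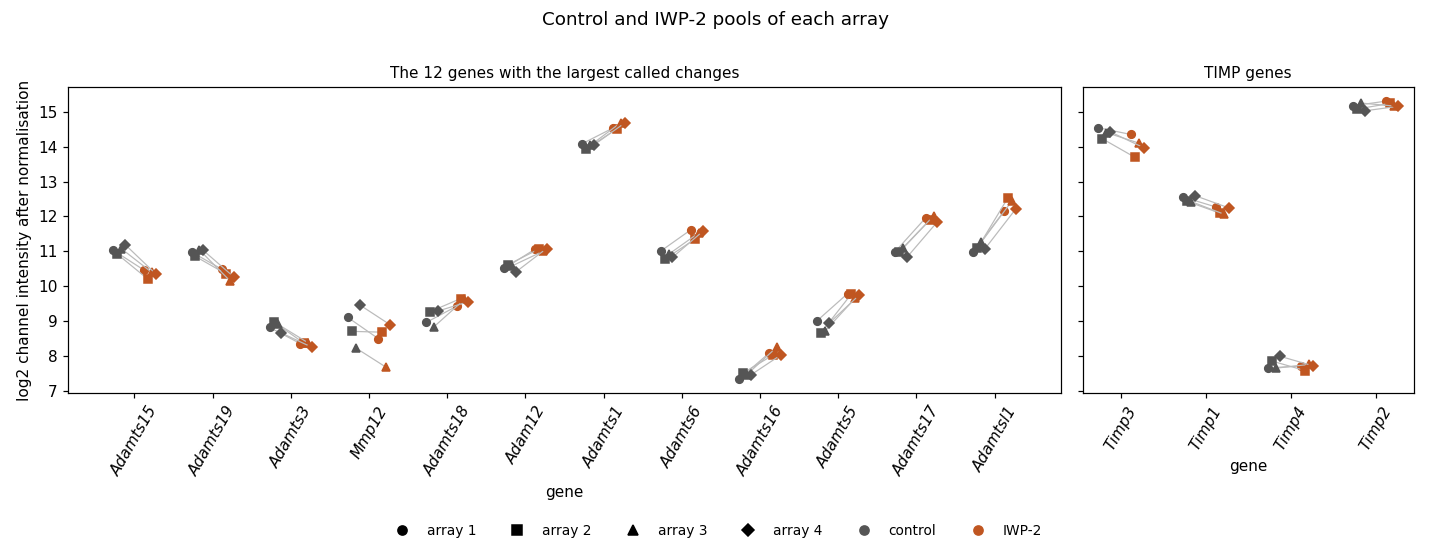
Normalized log2 channel intensity of control pools (gray) and IWP-2 pools (orange) for the 12 called genes with the largest changes and for the 4 TIMP genes, with a line joining both pools of an array; heights of different genes cannot be compared, since each has its own probe. For 11 of the 12 genes the groups are apart, and for Mmp12 they overlap.

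Of 24 measured ADAM genes 8 were higher, 3 lower and 13 not past the test. Among the 9 ADAMs with an active protease in somatic tissues, 5 were higher and 0 lower. Adam12, encoding a protease that releases growth factors of the EGF family, led them. Its control values of 10.51, 10.62, 10.59 and 10.41 stood below IWP-2 values of 11.06, 11.07, 11.00 and 11.08. The groups were separate, and the ratios of 0.55, 0.44, 0.41 and 0.67 gave a rise by 0.52 ± 0.11 (SD, n = 4; adjusted p = 0.000991). Further Adam12 probes gave 0.45 ± 0.15 and, for the probe across an intron, 0.35 ± 0.15.

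Adam15 rose by 0.41 ± 0.11. Adam19, the gene of meltrin beta, rose by 0.37 ± 0.11, although a dimmer probe elsewhere in the gene lay at -0.04 ± 0.05 and the mean of both probes was 0.17. Adam9, which encodes meltrin gamma, rose by 0.35 ± 0.05 and Adam8, known from leukocytes, by 0.32 ± 0.13. For each of these genes the groups did not overlap. Beside them, the 7 epithelial markers rose by 0.24 to 0.34, and the 8 macrophage markers ranged from -0.05 (Csf1r) to 0.43 (Lyz2) with a median of 0.18. The part of cell composition was not tested.

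The best known sheddases did not pass the test. Adam10, which cuts NOTCH and E-cadherin, had ratios of -0.16, 0.22, -0.47 and 0.21, with control values of 15.43, 15.09, 15.45 and 15.13 and IWP-2 values of 15.26, 15.30, 14.98 and 15.34. The sign followed the dye, negative on arrays 1 and 3 and positive on arrays 2 and 4. The mean was -0.05 ± 0.33 with a 95% interval of -0.19 to 0.08, and without array 3 it was 0.02. Adam17, encoding the enzyme that releases TNF and EGFR ligands, had ratios of 0.16, 0.33, -0.22 and 0.37 and a mean of 0.16 ± 0.27 (adjusted p = 0.110). Only array 3 was negative, and without it the change of 0.26 passed the test (adjusted p = 0.0185).

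Partners that guide these enzymes mostly rose: 5 of 7 were higher and 1 lower (71.4% and 14.3%, against 18.1% and 15.0% of all genes tested). Rhbdf1 and Rhbdf2, whose iRHOM proteins carry ADAM17 to the surface, rose by 0.30 ± 0.13 and 0.35 ± 0.06. Among the tetraspanins that partner ADAM10, Tspan33 rose by 0.43 ± 0.16, Tspan15 by 0.27 ± 0.06 and Tspan14 by 0.24 ± 0.08. Tspan5 fell by 0.89 ± 0.17 (adjusted p = 5.09e-05), with ratios of -0.72, -1.08, -0.78 and -0.98. Tspan17 did not pass the test, at 0.09 ± 0.10.

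ADAM proteins without protease activity that are known from the nervous system had 2 higher genes of 3. Adam23 rose by 0.28 ± 0.08 with separate groups and Adam22 by 0.19 ± 0.08, whereas Adam11 lay at 0.03 ± 0.11. The call of Adam22 depended on its probe: the further probes gave -0.02 ± 0.19 and -0.20 ± 0.63, the mean of all probes was -0.01, and without array 1 the change of 0.17 did not pass. Adam32 rose by 0.33 ± 0.13, while Adam4 fell by 0.29 ± 0.09 (by 0.48 from the processed signals), Adam5 by 0.29 ± 0.06 and Adam1a by 0.22 ± 0.11. These 4 genes are known from testis and sperm. Adam1a was not past the test without array 1 (-0.23), array 2 (-0.16) or array 3 (-0.21).

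Of 13 measured MMP genes 3 were lower, 3 higher and 7 not past the test. Lower and higher genes each made up 23.1%, against 15.0% and 18.1% of all genes tested. The 3 higher genes all encode membrane-type MMPs, of which 6 were measured. Mmp16 rose by 0.35 ± 0.14 (adjusted p = 0.00153) with ratios of 0.43, 0.20, 0.51 and 0.26, Mmp24 by 0.27 ± 0.17 and Mmp15 by 0.26 ± 0.18. Control and IWP-2 pools overlapped for Mmp16 and Mmp15 and were separate for Mmp24, and Mmp15 lay at -0.006 on array 2. The second Mmp24 probe lay at -0.01 ± 0.07, and the mean of both probes did not pass (0.13). Mmp14, which encodes the membrane-type MMP that activates MMP2, had control values of 12.01, 11.81, 12.03 and 11.69 and IWP-2 values of 12.12, 11.88, 12.09 and 11.88. The groups overlapped, and the mean of 0.11 ± 0.06 did not pass (adjusted p = 0.0993). Mmp17 and Mmp25, encoding membrane-type MMPs with a lipid anchor, lay at -0.10 ± 0.12 and 0.02 ± 0.10.

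The gelatinases cut basement membrane collagen. Mmp2 had control values of 14.77, 14.66, 14.75 and 14.63 and IWP-2 values of 14.68, 14.43, 14.64 and 14.60. It was lower on all 4 arrays, but by only -0.12 ± 0.08 (adjusted p = 0.109). Mmp9 lay at 0.20 ± 0.17 (adjusted p = 0.0636). Of the collagenases only Mmp8 was measured, at 0.15 ± 0.13. Mmp13 was well above background on at most 2 arrays of a group, and Mmp1a and Mmp1b on none. Mmp11, the gene of stromelysin-3, lay at -0.12 ± 0.10 (adjusted p = 0.0851).

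Mmp12, which encodes macrophage elastase, showed the largest fall among MMP genes. Its control pools lay at 9.11, 8.71, 8.24 and 9.47 and its IWP-2 pools at 8.50, 8.69, 7.68 and 8.90. The pools of different arrays varied more than the groups, which overlapped. The ratios of -0.61, -0.02, -0.56 and -0.57 gave -0.44 ± 0.28 (SD, n = 4; adjusted p = 0.0104). Of the macrophage markers 6 of 8 were higher and 0 lower, and Csf1r lay at -0.05 ± 0.13; the part of these cells in the Mmp12 value was not tested. Mmp23 fell by 0.30 ± 0.11 with separate groups. Mmp19 fell by 0.14 ± 0.07 (adjusted p = 0.0387), a call that was absent without any 1 of the arrays (-0.16 to -0.12).

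All 4 TIMP genes were measured. The Timp3 control pools gave 14.55, 14.23, 14.41 and 14.42 and the IWP-2 pools 14.35, 13.69, 14.10 and 13.97. TIMP3 stays bound to the matrix and blocks ADAM17 and several ADAMTS proteases besides MMPs. Its ratios of -0.20, -0.54, -0.31 and -0.45 gave a fall by 0.37 ± 0.15 (SD, n = 4; adjusted p = 0.00152), seen within each array although the groups overlapped across arrays. Timp1 had control values of 12.56, 12.44, 12.43 and 12.59 and IWP-2 values of 12.27, 12.09, 12.06 and 12.25. Its groups were separate, and ratios of -0.29, -0.34, -0.36 and -0.34 gave -0.33 ± 0.03 (SD, n = 4; adjusted p = 0.00169).

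Timp2, whose protein takes part in the activation of MMP2 by MMP14, had control values of 15.17, 15.08, 15.25 and 15.03 and IWP-2 values of 15.30, 15.24, 15.16 and 15.16. The groups overlapped, and the mean of 0.08 ± 0.11 did not pass (adjusted p = 0.231; 95% interval of the unadjusted fit -0.03 to 0.20). Timp4 had control values of 7.66, 7.86, 7.66 and 7.99 and IWP-2 values of 7.72, 7.59, 7.76 and 7.72. Its ratios followed the dye, at 0.06 and 0.11 on arrays 1 and 3 and -0.27 on arrays 2 and 4, and the mean of -0.10 ± 0.21 did not pass (adjusted p = 0.103).

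A list of other genes linked to the inhibition of metalloproteases, not all of which encode inhibitors, had 2 higher and 0 lower genes of 6. Spock1 and Spock2, which encode testican proteoglycans, rose by 0.25 ± 0.16 and 0.22 ± 0.16. Spock1 was not past the test without array 1 (0.17) or as the mean of its probes (0.12), nor Spock2 without array 2 (0.17) or array 3 (0.20). Reck, encoding a membrane-bound MMP inhibitor, did not pass the test, at -0.10 ± 0.07. In the plasminogen system, whose product plasmin activates several MMPs, Serpine2 fell by 1.06 ± 0.17 (adjusted p = 0.000186) with ratios of -0.90, -1.14, -1.25 and -0.95. It encodes protease nexin 1, an inhibitor of thrombin and plasminogen activators. Plat, the gene of tissue plasminogen activator, fell by 0.28 ± 0.13, and Plau and Plaur, the genes of urokinase and its receptor, did not pass the test, at 0.16 ± 0.18 and -0.03 ± 0.18.

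Most of these proteases are made as inactive precursors that proprotein convertases cut. Of 4 convertases measured, Pcsk5 fell by 0.64 ± 0.11 (adjusted p = 0.000312), and by 0.29 as the mean of all its probes. Pcsk6 and Pcsk7 did not pass the test, at -0.14 ± 0.15 and -0.04 ± 0.05. Furin rose by 0.33 ± 0.24 but not past the test without array 1 (0.22) or array 4 (0.23). Among lysosomal and secreted cathepsins, which cut matrix by other mechanisms, 4 of 5 rose: Ctss by 0.40 ± 0.17, Ctsb by 0.36 ± 0.14, Ctsl by 0.24 ± 0.13 and Ctsd by 0.21 ± 0.08. Ctsl was not past the test without array 2 (0.20) or array 3 (0.18), and neither was Ctsd (0.18 and 0.19). Ctsk did not pass the test, at 0.14 ± 0.19. Ctss and Ctsb are abundant in macrophages, of whose 8 markers 6 were higher while Csf1r (-0.05) and Cx3cr1 (0.05) did not pass, and the part of these cells was not tested. Cst3, encoding the cathepsin inhibitor cystatin C, fell by 0.16 ± 0.07, and lost its call without array 2, 3 or 4 (-0.18 to -0.13).

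**Figure D4:**
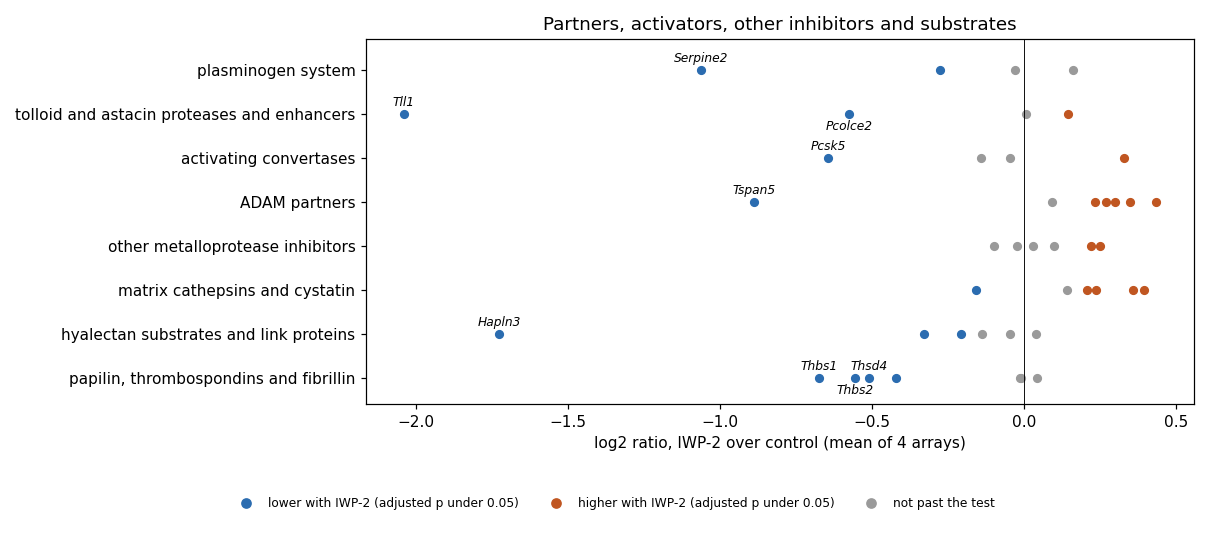
Mean log2 ratio of IWP-2 over control for the measured genes of 8 lists of partners, activators, other inhibitors and substrates of the proteases; each point is a gene, names are given for called genes beyond 0.5, and blue and orange mark genes past the test. Tll1 at -2.04 (-1.13 as the mean of its probes), Hapln3 at -1.73 (-1.90 to -1.26 under alternative processing) and Serpine2 at -1.06 stand farthest from 0. The largest called rise is that of Tspan33 at 0.43.

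Genes of the set that lie next to each other were compared. In the RefSeq gene table (GRCm38.p6) Adamts1 and Adamts5 are neighboring protein-coding genes on chromosome 16, and both were higher. Adamts15 and Adamts8 are neighbors on chromosome 9, and both were lower. On chromosome 8, Adam5, Adam32 and Adam9 follow each other, of which Adam5 was lower and the other 2 were higher. The MMP genes clustered on chromosome 9, from Mmp13 to Mmp7, were mostly not measured: only Mmp12, which fell, and Mmp8, which did not pass the test, were well above background. Neighboring genes are thus not uniform in direction.

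RefSeq promoter windows of 250 bases before and 50 bases after an annotated start were available for 38 of the 64 genes, with 42 windows. Each was searched on both strands for ATCAAAG, a sequence bound by the WNT-regulated TCF/LEF factors, for TGAGTCA, the AP-1 motif that is known from MMP promoters, and for TGTTTAC, a forkhead motif. ATCAAAG was in 0 of the 42 windows, against 3.73% of all 32851 windows, so that these letters do not occur this close to the annotated starts of these genes. TGAGTCA was in 2 windows (4.76%, against 5.2%), and TGTTTAC also in 2 (4.76%, against 3.65%). Both AP-1 matches lay before genes past the test, in opposite directions, and are shown with the motif in capitals on GRCm38.p6, + strand.
Mmp12, chr9:7347124-7347373, lower with IWP-2: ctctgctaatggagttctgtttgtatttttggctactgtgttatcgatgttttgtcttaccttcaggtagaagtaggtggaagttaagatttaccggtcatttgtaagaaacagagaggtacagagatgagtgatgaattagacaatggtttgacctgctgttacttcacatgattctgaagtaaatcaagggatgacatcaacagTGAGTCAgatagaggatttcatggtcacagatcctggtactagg
Adam19, chr11:46055734-46055983, higher with IWP-2: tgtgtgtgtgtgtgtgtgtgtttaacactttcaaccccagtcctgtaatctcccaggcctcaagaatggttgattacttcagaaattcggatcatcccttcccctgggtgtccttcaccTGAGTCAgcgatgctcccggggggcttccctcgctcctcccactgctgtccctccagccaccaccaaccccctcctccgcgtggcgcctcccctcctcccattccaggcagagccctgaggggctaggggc
The match begins 44 bases before the start in Mmp12 and 131 bases before it in Adam19. The forkhead matches lay before Adam8 and before another start of Adam19, both of which were higher. A match is a stretch of letters and was not tested as a binding site.

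The 20 names that were not measured are Mmp1a, Mmp1b, Mmp3, Mmp7, Mmp10, Mmp13, Mmp20, Mmp21, Mmp27, Mmp28, Adam1b, Adam3, Adam6a, Adam7, Adam18, Adam20, Adam24, Adam29, Adam30 and Adamts13. For 15 of them no array of either group was well above background. Adam7 and Mmp27 just missed the limit with 3 arrays of a group, while among the measured genes Mmp8 and Adam28 met it with 4 IWP-2 arrays and 1 control array. Measured ADAM genes with no value given above, Adam2, Adam6b, Adam21, Adam25, Adam26a, Adam26b, Adam28, Adam33, Adam34 and Adam39, had means from -0.06 to 0.12 and did not pass the test.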

How the data were processed

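Total RNA of pooled ureters was hybridised to 4 two-color Agilent arrays. The authors scanned them and ran Agilent Feature Extraction 10.7.3.1, per the labels, and the deposited scanner files give raw and processed intensities per spot. The log10 ratio deposited for each spot was used only to check direction (r of 0.928 to 0.950 with the ratios used here, over spots above background). The authors also deposited a table of signed fold changes per probe, rounded, of unstated normalization; it followed treated over control processed signals (r of 0.988 to 0.992 over 20405 bright probes; median log2 of 0 on each array) and served as an alternative.

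Raw intensities were corrected with limma 3.58.1 (R 4.3.3; normexp, offset 50), normalised by loess (span 0.3) and averaged per probe without control and outlier spots (3.01% to 3.38%); no spot was saturated. Channel intensities are values after Aquantile. Of 39429 gene probes 29933 were well above background (over 0.5 of the spots, all 4 arrays of a group), and the brightest stood for a gene. Ratios of 22455 genes were fitted with limma on treatment and dye. Adjusted p is two-sided, Benjamini-Hochberg over these genes, with 0.05 as the threshold. A 95% interval is that of the fit. Each mean has the SD of 4 arrays, which includes the dye effect. The offset draws ratios of dim probes towards 0, and the number of arrays limits precision. The dye term passed the threshold for 0 genes, with an unadjusted p under 0.05 for 13 of the 64. The script was tested on simulated data. Probe positions are those of the files (mm9), with no annotation of that build used here.

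The genes, lists, subgroups and tests were chosen with earlier results of these data known. Named are all of the 64 genes past the test (the 12 largest on every array), all TIMPs, Mmp2, Mmp14, Adam10, Adam17, and genes of the pathway lists past the test. Other genes were named after their values were seen. Of the lists, genes that did not pass are not all named, and one gene is not reported here. Alternatives covered background correction, signals, normalization, dye term, probe choice, filters, outlier spots, dye-swap pairs as replicates and leaving out each array; quantile normalization over all channels was added after seeing the data. The study's text speaks of 2 arrays per stage and its methods of 4 pools; the labels' 4 replicates were used.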

Additional observations from a re-analysis of the deposited data

Results flagged for a closer look

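In 4 results 1 array stood far from the other 3 by Dixon's criterion, among 48 values examined (42 genes and 6 medians), where chance gives about 1 in 20, or 2.4. For Mmp12, array 2 gave -0.0229 while the other arrays gave -0.61 to -0.56. For Adamtsl1, array 2 gave 1.45 against 1.13 to 1.17 on the others, so that the rise was present on every array. For Adam8, array 4 gave 0.52 against 0.23 to 0.27. For Timp2, array 3 gave -0.0857 against 0.13 to 0.16, the only negative value of this gene. The reason for these values was not tested.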

How the results depend on the processing

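Of the 36 genes past the test, 19 kept direction and call under each alternative in which they were tested. There were 15 alternatives, of which Adam4, Adam32, Adamts3 and Adamts16 were tested in 14, since the limit on processed signal removed them. These include Adamtsl1, Adamts17, Adamts5, Adamts16, Adamts15, Adamts6, Adamts1, Adam12, Adamts3, Timp1 and Timp3. The table of rounded fold changes lost most calls (15 of 36), among them Mmp12, Mmp15, Mmp24, Adam8, Adam15, Adam23, Adamts7, Adamts8, Adamts14, Adamts18 and Adamts19, and gave 12 higher genes, with medians of 0.0144 over the measured genes, 0 for ADAM and 0.0314 for ADAMTSL; it also called Timp4, at -0.19. Processed signals moved these medians to 0.10, 0.13 and 0.31, and an offset of 16 moved that of ADAMTSL to 0.23. Averaging all probes gave medians of 0.0168 over the measured genes and 0.0138 for ADAMTS, and turned Adam22 to -0.00777. Of 29 further probes of the measured genes, 10 had the opposite sign to the brightest probe. For genes past the test it was 5 of 19. A mean processed signal over 100 left 34 genes and 9 lower calls, with medians of 0.13 over these, 0.23 for ADAM, 0.21 for ADAMTS, 0.43 for ADAMTSL and -0.33 for TIMP. Without a filter on dim probes 84 genes had a median of 0.0313. Leaving out 1 array at a time moved the MMP median from 0.02 to between -0.0219 (without array 3) and 0.0582 (without array 2), so that it has no settled sign, and the change of Adam10 to between -0.129 (without array 1) and 0.0235 (without array 3); it left 13 to 14 lower and 19 to 22 higher genes. The causes were not tested, apart from the fewer genes under the stricter filter. Mmp19 lost its call under 8 alternatives, and Adamts2 and Adamtsl3 under 7 each.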

Other observations

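The surroundings of the neighboring ADAMTS genes were read on the probe positions of the files (mm9), within 500 kb, after the values of these genes had been seen. An unnamed probe at chr16:85899390-85899449 was higher by 0.68 ± 0.11 (SD, n = 4). It lies between the first and the second Adamts5 probe and directly adjoins the second, at chr16:85899450-85899509, which gave 0.70 ± 0.05. It is thus within the span of Adamts5 and cannot be taken as a separate neighbor. The 3 other unnamed probes in the region did not pass the test, at -0.10 ± 0.04, -0.06 ± 0.20 and -0.04 ± 0.21. Cyyr1 on the far side of Adamts1 was higher by 0.25 ± 0.13. Near Adamts15 and Adamts8, which were lower, St14 was higher by 0.49 ± 0.07 (adjusted p = 0.000417), and Zbtb44 between them and St14 lay at -0.05 ± 0.07. St14 encodes matriptase, an epithelial serine protease of the cell surface. Beside Adamtsl1, Saxo1 was higher by 0.49 ± 0.11, at a distance of 16.6 kb between the probes, while Rraga, Haus6 and Plin2 beyond it were lower, at -0.29 ± 0.40, -0.39 ± 0.22 and -0.27 ± 0.08. On array 3 Rraga was positive (0.24). In the same windows AK046703 near Adamts5 (0.19) and Aplp2, Tmem45b and 4930434F21Rik near Adamts8 (0.17, 0.23 and 0.13) were also higher. Snx19 near Adamts8 (-0.16) and Acer2 and an unnamed probe near Adamtsl1 (-0.18 and -0.33) were lower.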
